A study of Mus musculus with 36 samples.

Results

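The liver X receptors and 8 of their target genes were followed in mouse motor neurons that had been kept in medium conditioned by astrocytes. The 10 genes were the receptors Nr1h2 and Nr1h3, the cholesterol exporters Abca1 and Abcg1, the lipid-synthesis regulator Srebf1, the desaturases Scd1 and Scd2, the phospholipid-remodelling enzyme Lpcat3, and the ubiquitin ligases Mylip and Rnf145. They were taken by symbol, 10 of the 21761 genes in the count files, and were selected on their known link to LXR and, in part, on the day 3 counts in which Abca1, Abcg1, Scd1 and Srebf1 were lower in wtSOD1 than in NTg medium. That comparison is therefore a description, as is every other comparison of the 10 genes that uses the wtSOD1 libraries of day 3: folds, and counts of genes past the threshold, are given for them, and nothing is drawn from those counts. The NTg libraries of day 3 entered the same choice, so comparisons of these 4 genes against NTg medium on day 3, or with time in NTg medium, are likewise a description. Their folds are given without a p-value of their own. Some counts of genes past a threshold include these 4 genes, and nothing is drawn from their part in them. All 10 genes had enough reads to be tested.

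Liver X receptors (LXRs) are nuclear receptors that pair with retinoid X receptors (RXRs) and are switched on by oxysterols, the oxidised forms of cholesterol. They bind direct repeats of a hexamer set apart by a short spacer, called DR4 elements, and raise genes that move cholesterol out of the cell and that make and desaturate fatty acids. In the central nervous system much of the cholesterol reaching neurons is made by astrocytes and carried on lipoproteins, and ABCA1 and ABCG1 load cholesterol onto such particles. Sterol regulatory element-binding protein 2 (SREBP2) controls the opposing programme of cholesterol synthesis and uptake.

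The cells were motor neurons differentiated from embryonic stem (ES) cells of Hlxb9-GFP1Tmj mice that carry eGFP, or eGFP with CD2, under the HB9 promoter, and they were purified with magnetic beads against CD2. They were exposed to medium from astrocytes of pups with the G93A mutant SOD1 transgene (mSOD1), of pups with the wild-type SOD1 transgene (wtSOD1) or of non-transgenic pups (NTg), for 3 days or for 1 day. All media held added glucose (4.5 mg/ml), penicillin and streptomycin, GDNF (0.5 ng/ml), BDNF (1 ng/ml) and CNTF (10 ng/ml), and astrocytes came from newborn spinal cord or cortex, with the source of each library not given in the labels. The SOD1 transgenes were carried by the astrocytes and not by the sequenced cells, so no transgene check applied to the libraries. Each of the 6 groups had 6 libraries, numbered by experiment 1 to 6, with 4386946 to 88931151 reads per library. Nothing in the labels says how separately the cultures of an experiment were prepared, so p-values measure the spread between these libraries. In such bulk libraries, fewer cells of a type and less RNA per cell cannot be told apart.

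Promoter stretches of Abca1, Srebf1 and Rnf145 are shown because they hold the DR4-type repeats found among the 10 genes. RefSeq promoter windows (GRCm38.p6), each of 300 bases from 250 before to 50 after an annotated start, were matched for 7 of the 10 genes with 12 starts in all. Abcg1, Scd1 and Scd2 had no entry. Each stretch is on the gene's own strand, 5′ to 3′, with the repeat in capitals; the Abca1 stretch is chr4:53159887-53159992 (minus strand), the Srebf1 stretch chr11:60210578-60210683 (minus strand) and the Rnf145 stretch chr11:44520167-44520272 (plus strand).
Abca1: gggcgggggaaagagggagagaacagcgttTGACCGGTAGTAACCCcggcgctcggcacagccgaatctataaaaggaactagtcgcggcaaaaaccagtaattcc
Srebf1: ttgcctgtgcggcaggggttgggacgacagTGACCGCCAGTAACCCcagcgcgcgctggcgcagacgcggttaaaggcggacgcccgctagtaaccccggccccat
Rnf145: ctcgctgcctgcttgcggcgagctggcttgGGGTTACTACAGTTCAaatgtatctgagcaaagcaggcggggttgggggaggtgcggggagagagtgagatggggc

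Read on the opposite strand, the Abca1 repeat was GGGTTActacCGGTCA at 67 to 52 bases before the start, and the Srebf1 repeat, at the innermost of 3 annotated starts, was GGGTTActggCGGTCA at 182 to 167 bases before it. The Rnf145 repeat, on the gene's own strand, lay 92 to 77 bases before the innermost of its 3 starts. The pattern GGGTTANNNNCGGTCA, searched on both strands, was held by 3 of 32851 mouse promoter windows (0.00913%), and 2 of these were Abca1 and Srebf1. The wider pattern GGGTTANNNNNGNTCA, which covers the narrower one, was held by 12 windows (0.0365%), among them the 3 printed here. Both patterns were written after these promoters had been read, so their rarity is a description. The textbook repeat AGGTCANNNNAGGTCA was held by 5 windows (0.0152%), and the sterol regulatory element TCACNCCAC by 1.24% of windows. Neither was found in the 12 windows. The CCAAT box, held by 37.4% of all windows, was found at 4 places in Lpcat3, 3 in Mylip and 2 in Srebf1. A match describes letters only; binding was not measured.

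**Figure D1:**
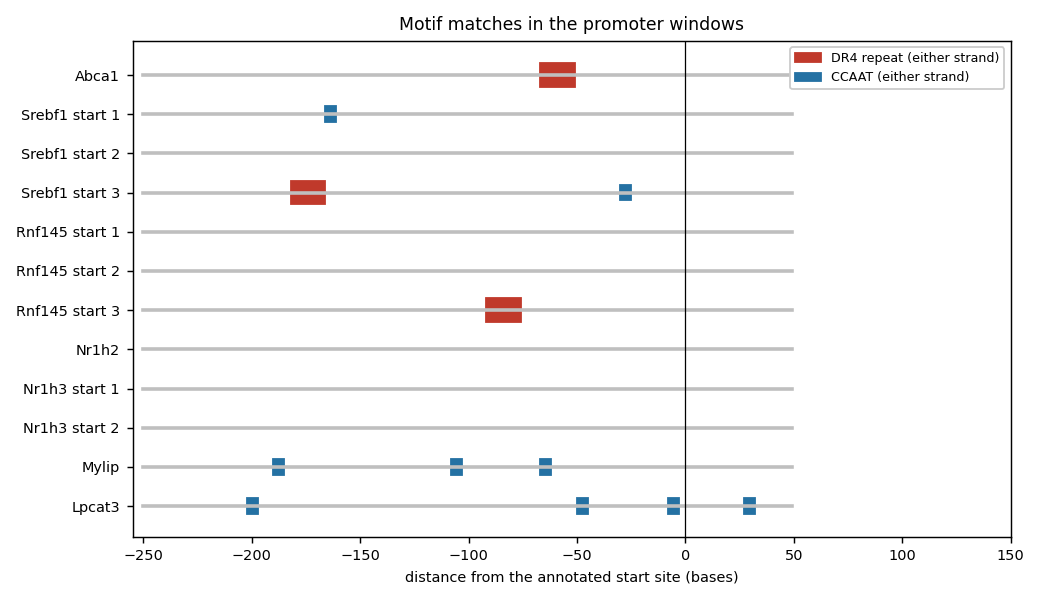
Positions of motif matches in the 12 RefSeq promoter windows of 7 genes; the horizontal axis is the distance from the annotated start in bases, red blocks are DR4-type repeats (the wider pattern) and blue blocks CCAAT boxes, on either strand. Repeats stand at 1 start each of Abca1, Srebf1 and Rnf145.

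Levels between genes were compared as counts per M reads (CPM, on library sizes scaled by TMM) per kilobase of annotated exon. Scd2 stood first at 324 CPM per kb as the mean of the 6 groups. Rnf145 (23.7), Scd1 (21.9), Srebf1 (20.6) and Abca1 (17.0 CPM per kb) followed, and their group means overlapped one another, with Scd1 between 10.9 and 39.6 and Abca1 between 9.76 and 29.4 CPM per kb. Lpcat3 (12.6) and Nr1h2 (8.49) came next, then Mylip (2.07), Abcg1 (1.42) and Nr1h3 (0.270 CPM per kb). All values below, other than those said to be per kb, are CPM of 1 gene, given as the lowest, median and highest of 6 libraries, or log2 folds between groups with their standard errors.

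**Figure D2:**
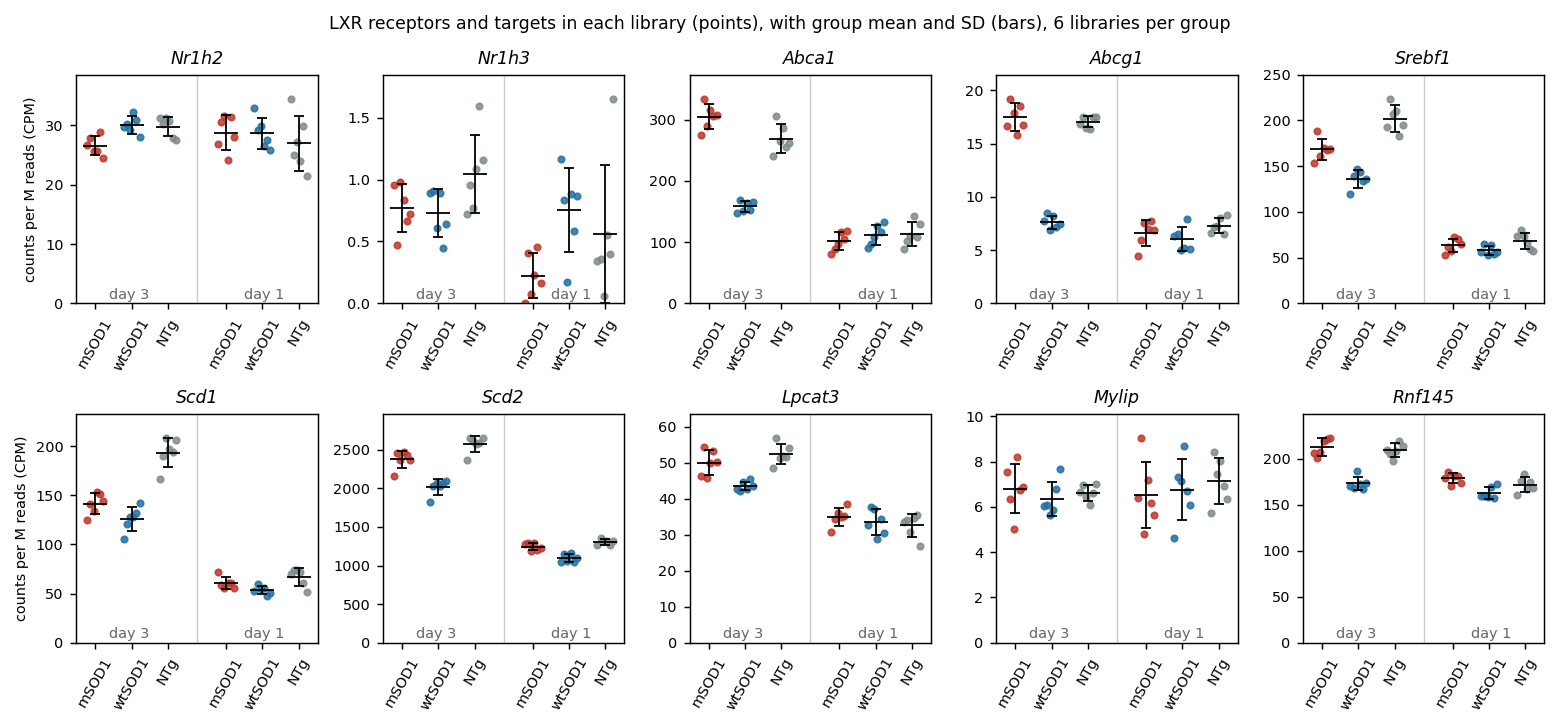
CPM of each of the 10 genes in every library (points), by medium and day; bars are the mean and SD of 6 libraries. On day 3 the wtSOD1 libraries of Abca1 and Abcg1 sit below all mSOD1 and NTg libraries, while Nr1h2 and Mylip show overlapping media.

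The genes split into groups by medium on day 3. In wtSOD1 medium both exporters were the lowest relative to NTg medium, followed by Scd1 and Srebf1, then by Scd2, Rnf145 and Lpcat3 with smaller differences, while Nr1h2 and Mylip were near 0 and the sparse Nr1h3 was at -0.44 ± 0.36 on the log2 scale. Of the 10 genes, 6 were lower with an adjusted p below 0.05, against 9 of 15207 genes tested (0.0592%), and 7 had all 6 libraries below the NTg libraries, against 0.263% of genes. Nothing is read from these counts, because this comparison chose the genes. The other genes called lower among all genes tested were Fasn, the fatty acid synthase, Ddc and Acsl3. In mSOD1 against NTg medium, which shares the NTg day 3 libraries with that comparison, 2 of the 10 genes were lower with an adjusted p below 0.05, Scd1 and Srebf1, where 0.684% of all genes were, and none of the 10 was higher. With the experiment as a block within the day, 4 of the 10 passed, beside 18.1% of all genes in either direction. Scd1, Srebf1 and Scd2 were lower, and Abca1 was higher, with a log2 fold of 0.18. Scd1, Srebf1 and Abca1 were among the genes picked with these NTg libraries, so nothing is read from those counts. The Srebf1 call of the main fit was lost with any experiment left out. None of the 6 genes that were not picked in this way passed in the main fit. Of these, Scd2 passed with the block within the day (adjusted p = 0.0025) and with the experiment as a block over both days (0.0333). The median log2 fold of the 10 genes was -0.09 and that of all genes tested -0.01. In mSOD1 against wtSOD1 medium 5 of the 10 genes were higher with an adjusted p below 0.05, where 2.49% of all genes were, and nothing is read from that count either.

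On day 1 few of the 10 genes differed between media beyond the spread of the libraries. In mSOD1 against NTg medium, 0 of 10 genes passed, with 64 of 15207 genes called overall (0.421%); 1 of the 10 had an unadjusted p under 0.05 in edgeR, and DESeq2 and limma on the authors' values also called 0. With the experiment as a block within each day 1 of the 10 passed there, Abca1, beside 1.24% of all genes. In wtSOD1 against NTg medium, only Scd2 of the 10 genes fell, where 3 of 15207 genes fell (0.0197%), and no member rose. In mSOD1 against wtSOD1 medium on day 1, Scd2 rose (0.539% of genes rose) and Nr1h3 fell (0.467% of genes fell). With the same block, 5 of the 10 genes passed in that last comparison, beside 3.79% of all genes, and the added genes were Abca1 (-0.15, adjusted p = 0.0052), Scd1 (0.19, 0.0297) and Rnf145 (0.13, 0.0215).

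**Figure D3:**
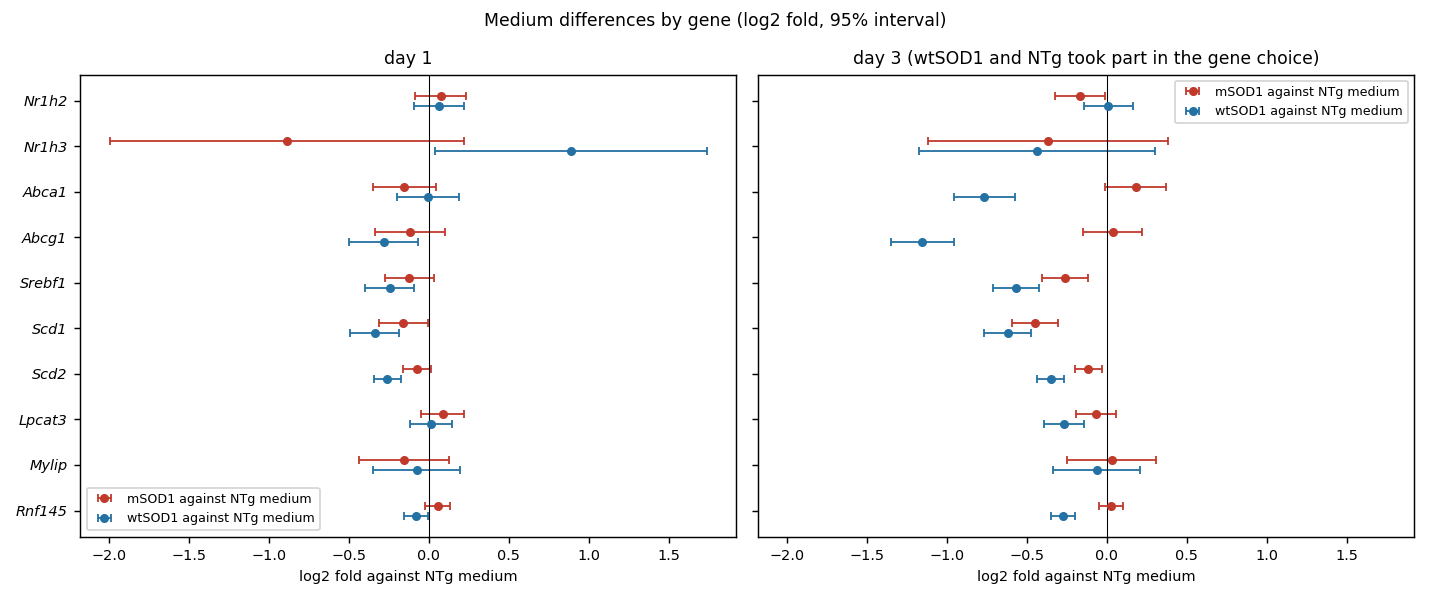
Log2 fold of each gene in mSOD1 (red) and wtSOD1 (blue) against NTg medium on day 1 (left) and day 3 (right), with 95% intervals from 6 libraries a group. On day 3 Abca1 and Abcg1 lie near or above 0 in mSOD1 medium and at -0.77 and -1.15 in wtSOD1 medium.

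Nr1h2 encodes LXRβ, the LXR found in most tissues (chromosome 7, 44549616-44553951, GRCm38). On day 3 it measured 24.5, 26.2 and 29.0 CPM in mSOD1 medium, 28.0, 29.96 and 32.3 CPM in wtSOD1 medium, and 27.5, 30.4 and 31.2 CPM in NTg medium. The 3 media overlapped, with mSOD1 lowest at the median. The log2 fold was -0.17 ± 0.08 in mSOD1 against NTg medium (adjusted p = 0.22, lower in 5 of 6 experiments) and 0.01 ± 0.08 in wtSOD1 against NTg medium. Day 1 levels ranged from 21.5 to 34.5 CPM over all 18 libraries. The change from day 1 did not pass in mSOD1 medium (-0.12 ± 0.08, adjusted p = 0.187) or in NTg medium (0.12 ± 0.08, 0.165); without experiment 1 the NTg value was 0.19 with an adjusted p of 0.0325.

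Nr1h3 encodes LXRα, which in other tissues is highest in liver, fat and macrophages (chromosome 2, 91184061-91202834). It was near the limit of counting: on day 3 the libraries held 5 to 17 reads in mSOD1 medium, 6 to 22 in wtSOD1 medium and 12 to 31 in NTg medium, and on day 1 they held 0 to 6 reads in mSOD1 medium, 3 to 73 in wtSOD1 medium and 1 to 7 in NTg medium. In CPM it measured 0.468, 0.778 and 0.982 in mSOD1 medium, 0.447, 0.764 and 0.911 in wtSOD1 medium, and 0.718, 1.02 and 1.59 in NTg medium on day 3. The media overlapped, and the fold was -0.37 ± 0.37 in mSOD1 against NTg medium (adjusted p = 0.631). Day 1 levels were 0, 0.200 and 0.456 CPM in mSOD1 medium, 0.172, 0.852 and 1.17 CPM in wtSOD1 medium, and 0.0572, 0.377 and 1.65 CPM in NTg medium. The highest of these, in NTg medium, was experiment 6, the library with the fewest reads, in which the summed microglia and macrophage markers stood at 56.3 CPM against 3.32 to 7.53 CPM in all other libraries; the part of such cells in the value was not tested. On day 1, Nr1h3 was lower in mSOD1 than in wtSOD1 medium in 6 of 6 experiments, with overlapping libraries (-1.77 ± 0.47, adjusted p = 0.0494). That call was lost without experiment 1, 2, 4 or 6 (adjusted p of 0.225, 0.0951, 0.347 and 0.142), without the filter on low counts (0.0757), without the 2 libraries of extreme depth (0.0944), with only the groups compared (0.256) and in limma on the authors' log2 values (0.0637).

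Abca1 encodes the transporter that moves cholesterol and phospholipid to lipid-poor apolipoproteins (chromosome 4, 53030787-53159895). Its day 3 levels were 275, 307 and 334 CPM in mSOD1 medium, 148, 158 and 169 CPM in wtSOD1 medium, and 241, 263 and 306 CPM in NTg medium. The wtSOD1 libraries lay well below all others, and mSOD1 and NTg overlapped. The log2 fold was -0.77 ± 0.09 in wtSOD1 and 0.18 ± 0.09 in mSOD1 against NTg medium, with mSOD1 higher in 6 of 6 experiments. Against wtSOD1 medium, mSOD1 medium was higher by 0.95 ± 0.09. On day 1 the media overlapped, at 80.7, 101 and 117 CPM in mSOD1 medium, 89.9, 113 and 132 CPM in wtSOD1 medium, and 88.1, 109 and 143 CPM in NTg medium. Against NTg medium that day, the log2 fold was -0.15 ± 0.10 in mSOD1 medium (adjusted p = 0.835; 0.00411 with the block within the day) and -0.01 ± 0.10 in wtSOD1 medium (1).

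Abcg1 encodes a half-transporter that passes cholesterol on to lipidated particles (chromosome 17, 31057675-31117988). On day 3 it measured 15.8, 17.3 and 19.2 CPM in mSOD1 medium, 6.85, 7.57 and 8.44 CPM in wtSOD1 medium, and 16.4, 17.2 and 17.5 CPM in NTg medium. As with Abca1, the wtSOD1 libraries stood clear below the rest while mSOD1 and NTg overlapped. Its fold in wtSOD1 against NTg medium was the largest in size of the 10 genes at -1.15 ± 0.10, a level 0.450 times that in NTg medium, and it was 0.04 ± 0.09 in mSOD1 against NTg medium. On day 1 the levels were 4.48, 6.93 and 7.75 CPM in mSOD1 medium, 5.03, 5.79 and 7.89 CPM in wtSOD1 medium, and 6.48, 7.23 and 8.25 CPM in NTg medium. These overlapped, with folds of -0.12 ± 0.11 in mSOD1 (adjusted p = 0.898) and -0.28 ± 0.11 in wtSOD1 medium (0.654). The day 3 wtSOD1 level of 7.63 ± 0.605 CPM stood near the day 1 NTg level of 7.30 ± 0.730 CPM (SD, n = 6 each).

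Srebf1 encodes the SREBP-1 regulators of fatty acid synthesis, and its SREBP-1c form is an LXR target (chromosome 11, 60199089-60222581). Levels on day 3 were 153, 169 and 189 CPM in mSOD1 medium, 119, 138 and 147 CPM in wtSOD1 medium, and 183, 201 and 223 CPM in NTg medium. Here mSOD1 lay between the other media, above every wtSOD1 library and overlapping NTg at one end. The log2 fold was -0.26 ± 0.07 in mSOD1 (lower in 6 of 6 experiments) and -0.57 ± 0.07 in wtSOD1 against NTg medium. On day 1 the medians were 63.3 CPM in mSOD1 medium, 55.9 CPM in wtSOD1 medium and 69.5 CPM in NTg medium, with overlapping libraries, and the fold against NTg medium passed neither in mSOD1 medium (-0.12 ± 0.08, adjusted p = 0.829) nor in wtSOD1 medium (-0.25 ± 0.07, 0.397). The gene overlaps Rai1 on the opposite strand by 109 bases at their ends, and the sources used here do not say whether counting used strand. Rai1 differed little, with log2 folds of 0.06 ± 0.07 in mSOD1 and 0.09 ± 0.06 in wtSOD1 against NTg medium on day 3.

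Scd1 encodes a stearoyl-CoA desaturase, which places a double bond in saturated fatty acids (chromosome 19, 44394455-44407879). On day 3 it measured 125, 143 and 154 CPM in mSOD1 medium, 105, 128 and 142 CPM in wtSOD1 medium, and 167, 195 and 208 CPM in NTg medium. Both SOD1 media lay wholly below NTg medium and overlapped each other. The fold was -0.45 ± 0.07 in mSOD1 against NTg medium (lower in 6 of 6 experiments), a level 0.732 times that in NTg medium, and -0.62 ± 0.07 in wtSOD1 against NTg medium. Among all genes, 0.894% had every mSOD1 library below every NTg library that day. Between mSOD1 and wtSOD1 medium the fold was 0.17 ± 0.07. On day 1 Scd1 measured 56.0, 59.9 and 71.5 CPM in mSOD1 medium, 47.9, 53.7 and 59.5 CPM in wtSOD1 medium, and 51.4, 70.6 and 74.4 CPM in NTg medium. The 3 media overlapped; the fold in wtSOD1 medium was -0.34 ± 0.08 (adjusted p = 0.0914, lower in 6 of 6 experiments) and passed with the block within the day (0.000344), without the 2 libraries of extreme depth (0.0292) and in DESeq2 (0.0241).

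Scd2 encodes the desaturase isoform prominent in mouse brain (chromosome 19, 44293674-44306864). Per kb of exon it was the highest of the 10 genes in every group. On day 1 it measured 1188, 1250 and 1289 CPM in mSOD1 medium, 1040.4, 1079 and 1156 CPM in wtSOD1 medium, and 1259.9, 1316 and 1359.8 CPM in NTg medium. All wtSOD1 libraries lay below all libraries of both other media, which overlapped; 0.132% of genes lay so below NTg medium, and 0.526% had all mSOD1 above all wtSOD1 libraries. Scd2 fell in wtSOD1 against NTg medium by 0.26 ± 0.04 (adjusted p = 0.00213, lower in 6 of 6 experiments) and rose in mSOD1 against wtSOD1 medium by 0.19 ± 0.04 (0.0128, higher in 6 of 6 experiments). The first call was lost without experiment 3 (0.095) or 6 (0.0711) and when only the groups compared were fitted (0.0687). The second was lost without experiment 2, 3, 4 or 5 (0.0516 to 0.0653) and when only the groups compared were fitted (0.0806). In mSOD1 against NTg medium the day 1 fold was -0.07 ± 0.04 (adjusted p = 0.8).

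On day 3 Scd2 measured 2164, 2402 and 2470.4 CPM in mSOD1 medium, 1822, 2048 and 2090.9 CPM in wtSOD1 medium, and 2370.3, 2601 and 2649.8 CPM in NTg medium. The wtSOD1 libraries again lay below all others. The fold in wtSOD1 against NTg medium was -0.35 ± 0.04. In mSOD1 against NTg medium it was -0.12 ± 0.04 (adjusted p = 0.113, lower in 6 of 6 experiments), which passed with the experiment as a block (0.0333) or as a block within the day (0.0025). The ratio of Scd1 to Scd2 CPM, as a percent, was 5.95 ± 0.246% in mSOD1 medium, 6.23 ± 0.356% in wtSOD1 medium and 7.52 ± 0.360% in NTg medium on day 3 (SD, n = 6 each), and between 4.89% and 5.12% on average on day 1.

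Scd3 and Scd4 are neighbours of Scd1 and Scd2 on chromosome 19 and share sequence with them. In the annotated transcripts, 6.82% of windows of 36 bases in Scd1 and 5.42% in Scd2 also occurred in another Scd gene. Reads from those windows could be assigned to either gene. Of the Scd2 windows, 3.99% were shared with Scd1, 4.08% with Scd3 and 1.70% with Scd4. In NTg medium on day 3, Scd1, Scd3 and Scd4 stood at 7.52%, 4.11% and 2.83% of the Scd2 CPM. The part of Scd2 reads in the counts of these 3 genes was not tested. Scd4 was 65.6 ± 7.39 CPM in mSOD1 medium, 54.5 ± 2.94 CPM in wtSOD1 medium and 72.8 ± 6.27 CPM in NTg medium on day 3. Scd3 was 94.6 ± 6.80 CPM in mSOD1 medium, 90.2 ± 14.3 CPM in wtSOD1 medium and 105 ± 9.35 CPM in NTg medium that day (SD, n = 6 each). Neither passed in mSOD1 against NTg medium that day (Scd4 -0.15 ± 0.09, adjusted p = 0.387; Scd3 -0.16 ± 0.09, 0.358). With time both rose, Scd4 by 0.88 ± 0.10 in mSOD1 medium (1.17e-09) and by 0.91 ± 0.10 in NTg medium (2.15e-10), and Scd3 by 1.00 ± 0.10 in mSOD1 medium (5.3e-11) and by 0.95 ± 0.10 in NTg medium (7.14e-11).

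Lpcat3 encodes the acyltransferase that places polyunsaturated chains on lysophospholipids (chromosome 6, 124663027-124704418). Day 3 levels were 45.8, 50.1 and 54.3 CPM in mSOD1 medium, 42.2, 43.2 and 45.4 CPM in wtSOD1 medium, and 48.5, 51.8 and 56.8 CPM in NTg medium. The wtSOD1 libraries lay below the others by a narrow margin. The fold was -0.07 ± 0.06 in mSOD1 (adjusted p = 0.597) and -0.27 ± 0.06 in wtSOD1 against NTg medium. On day 1 it averaged 34.9 ± 2.49 CPM in mSOD1 medium, 33.5 ± 3.57 CPM in wtSOD1 medium and 32.6 ± 3.26 CPM in NTg medium (SD, n = 6 each). Its annotation overlaps that of Emg1 on the opposite strand by 334 bases; Emg1 had folds of -0.06 ± 0.07 in mSOD1 and -0.07 ± 0.07 in wtSOD1 against NTg medium on day 3.

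Rnf145 encodes a membrane ubiquitin ligase that acts on the SREBP escort protein SCAP (chromosome 11, 44518964-44565520). On day 3 it measured 200.4, 213 and 222 CPM in mSOD1 medium, 167, 171 and 187 CPM in wtSOD1 medium, and 197, 209 and 219.6 CPM in NTg medium. The wtSOD1 libraries lay below all others, while mSOD1 and NTg overlapped. The fold was 0.02 ± 0.04 in mSOD1 (adjusted p = 0.772) and -0.27 ± 0.04 in wtSOD1 against NTg medium. On day 1 it measured 170.5, 179.9 and 185 CPM in mSOD1 medium, 157, 159 and 173 CPM in wtSOD1 medium, and 160.4, 171 and 184 CPM in NTg medium. The media overlapped. The fold in mSOD1 against wtSOD1 medium was 0.13 ± 0.04 (adjusted p = 0.077, higher in 6 of 6 experiments), and DESeq2 called it (0.0423).

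Mylip encodes IDOL, a ubiquitin ligase that answers LXR in many mouse and human cells (chromosome 13, 45389742-45412022). It measured 5.03, 6.83 and 8.19 CPM in mSOD1 medium, 5.63, 6.06 and 7.66 CPM in wtSOD1 medium, and 6.07, 6.64 and 7.02 CPM in NTg medium on day 3. All media and both days overlapped. No comparison of Mylip passed, and its log2 folds lay between -0.15 and 0.09 across media and between -0.12 and 0.06 across days. At this depth, with 27 to 719 reads per library, its standard errors of 0.13 to 0.14 were wide beside those of Scd2 at 0.04.

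With time, 8 of the 10 genes rose in mSOD1 medium on day 3 against day 1, namely Nr1h3, Abca1, Abcg1, Srebf1, Scd1, Scd2, Lpcat3 and Rnf145, where 28.4% of all genes tested rose and 28% fell. The same 8 genes were higher on day 3 in NTg medium with an adjusted p below 0.05, where 30.8% of all genes rose and 30.8% fell. Nr1h2 and Mylip passed in neither. The median log2 fold of the 10 genes was 1.08 in mSOD1 medium, where that of all genes tested was -0.01, and 1.11 in NTg medium, where that of all genes tested was 0.00. The NTg count uses the day 3 libraries that took part in the choice of 4 of these genes, so nothing is read from it; the mSOD1 comparison uses none of them.

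Srebf1 rose by 1.41 ± 0.07 in mSOD1 medium (adjusted p = 1.28e-18) and its fold was 1.56 ± 0.07 in NTg medium, while the overlapping Rai1 fell by 0.16 ± 0.07 in mSOD1 medium (0.0406) and by 0.31 ± 0.07 in NTg medium (8.4e-05). Scd1 rose by 1.22 ± 0.07 in mSOD1 medium (1.02e-16) and its fold was 1.52 ± 0.07 in NTg medium. For both genes every day 3 library lay above the day 1 range in these media. Abca1 rose by 1.59 ± 0.10 in mSOD1 medium (3.84e-16), the largest fold estimate of the 10 genes there after the sparse Nr1h3, against a fold of 1.26 ± 0.10 in NTg medium. Abcg1 rose by 1.40 ± 0.10 in mSOD1 medium (7.51e-15), against a fold of 1.25 ± 0.10 in NTg medium. The day 3 and day 1 libraries of both exporters did not overlap either. Scd2 rose by 0.93 ± 0.04 in mSOD1 medium (9.92e-21) and by 0.98 ± 0.04 in NTg medium (1.5e-21). Lpcat3 rose by 0.51 ± 0.06 in mSOD1 medium (8.81e-09) and by 0.67 ± 0.06 in NTg medium (1.03e-11). Rnf145 rose by 0.25 ± 0.04 in mSOD1 medium (3.67e-07) and by 0.28 ± 0.04 in NTg medium (2.65e-08). For each of these 7 genes, all day 3 libraries lay above all day 1 libraries in both media, where 17.4% of all genes did so in mSOD1 medium and 19.8% in NTg medium. Nr1h3 rose by 1.79 ± 0.49 in mSOD1 medium (0.00186) and by 1.27 ± 0.41 in NTg medium (0.00716), on few reads.

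In wtSOD1 medium, given without a test, the same folds were 1.23 ± 0.07 for Srebf1, 1.23 ± 0.07 for Scd1 and 0.89 ± 0.04 for Scd2. For Srebf1 and Scd1 the NTg folds were larger, at 1.56 ± 0.07 and 1.52 ± 0.07, and the mSOD1 folds were 1.41 ± 0.07 and 1.22 ± 0.07. The wtSOD1 folds were 0.50 ± 0.09 for Abca1, 0.37 ± 0.10 for Abcg1, 0.38 ± 0.06 for Lpcat3 and 0.09 ± 0.04 for Rnf145. In this medium 7 of 10 genes were higher on day 3 with an adjusted p below 0.05, where 31.1% of all genes were (30.7% were lower), and nothing is read from that count. The difference between mSOD1 and NTg medium in the change with time was tested directly: 0 of 10 genes passed, with 35 of 15207 genes called (0.230%). In edgeR 3 of the 10 had an unadjusted p under 0.05 (Scd1 -0.29 ± 0.10, Abca1 0.33 ± 0.13 and Nr1h2 -0.24 ± 0.11), DESeq2 and limma on the authors' values called 0, and with the experiment as a block 1 was called, Abca1. This difference also contains the NTg day 3 libraries, so the values and calls for Scd1 and Abca1 are a description, and nothing is drawn from them.

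**Figure D4:**
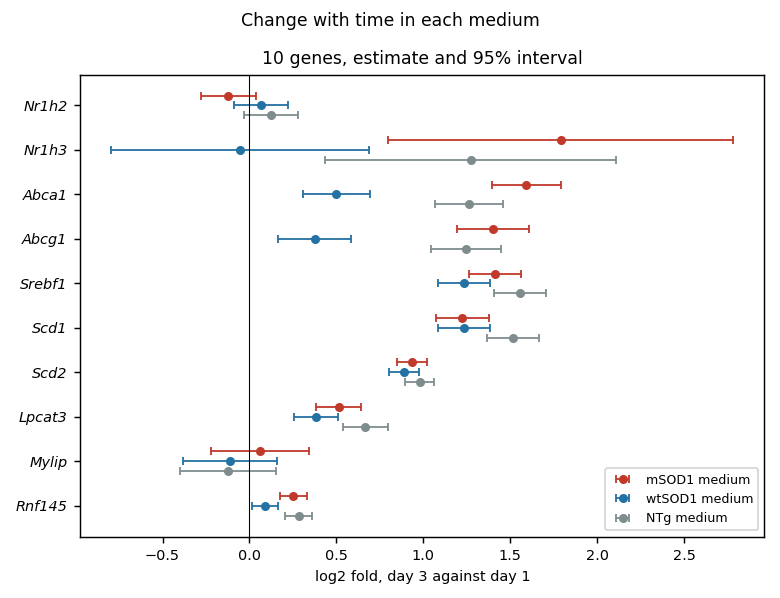
Log2 fold of day 3 against day 1 for each gene in mSOD1 (red), wtSOD1 (blue) and NTg (grey) medium, with 95% intervals from 6 libraries a day. Abca1, Abcg1 and Rnf145 lie lower in wtSOD1 medium, at 0.50, 0.37 and 0.09, while the 3 media lie close together for Scd2.

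Markers of cell types also moved with the day. All 8 motor neuron markers were lower on day 3 in each medium, and their summed level was 410 to 752 CPM on day 3 against 1226 to 1470.5 CPM on day 1 over the 18 libraries of each day. Of 8 astrocyte markers 6 rose and 1 fell in each medium, and their sum was 444 to 653 CPM on day 3 against 158 to 235 CPM on day 1. Mesenchymal markers, 7 tested, rose in 6 (mSOD1 and wtSOD1) or 7 (NTg). Of 8 progenitor and cycling markers 7 rose and 1 fell in each medium. Of 8 pan-neuronal markers 7 (mSOD1) or 8 (wtSOD1 and NTg) fell. Among all genes tested, 28.4% to 31.1% rose with time and 28% to 30.8% fell. Whether cells of these types take part in the rise of the LXR genes was not tested. Between media on day 3 no astrocyte marker passed in edgeR. At an unadjusted p under 0.05 there was 0 of 8 in mSOD1 and 1 of 8 in wtSOD1 against NTg medium, and the sums were 444 to 583 CPM in mSOD1 medium, 468 to 611 CPM in wtSOD1 medium and 479 to 653 CPM in NTg medium. Mesenchymal sums that day were 155 to 228 CPM in mSOD1 medium, 178 to 254 CPM in wtSOD1 medium and 204 to 272 CPM in NTg medium. Of the 7 markers tested, 2 were lower in mSOD1 against NTg medium, where 0.684% of all genes were. Neuronal markers lay higher in mSOD1 against NTg medium that day: of 8 pan-neuronal markers all were above 0 with a median log2 fold of 0.23, and 2 rose, Stmn2 (0.32, adjusted p = 0.0231) and Elavl4 (0.28, 0.0233), where 2.23% of all genes rose. Of 8 motor neuron markers 7 were above 0 with a median of 0.19, and Ret rose (0.31, 0.0228). Their sums were 3658 to 4902 CPM (pan-neuronal) and 523 to 752 CPM (motor neuron) in mSOD1 medium, 2859 to 4198 CPM and 409.8 to 662 CPM in wtSOD1 medium, and 2999.6 to 4125 CPM and 435 to 665 CPM in NTg medium. In wtSOD1 against NTg medium none of either list passed, with medians of -0.02 and -0.08. The part of those cells in the media differences was not tested.

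Other LXR target genes outside the 10 had median time folds of 0.22 in mSOD1 medium, 0.15 in wtSOD1 medium and 0.22 in NTg medium. Of 20 listed, 14 were tested, and on day 3 against day 1 7 rose and 1 fell in mSOD1 medium, 7 rose and 2 fell in wtSOD1 medium, and 7 rose and 3 fell in NTg medium, beside the 28.4% to 31.1% of all genes that rose and the 28% to 30.8% that fell. Pltp, which transfers phospholipid between lipoproteins, rose by 1.43 ± 0.12 in mSOD1 medium (adjusted p = 7.11e-13), by 1.61 ± 0.11 in wtSOD1 medium (5.47e-15) and by 1.54 ± 0.12 in NTg medium (6.07e-14). Smpdl3a, a phosphodiesterase, rose by 2.02 ± 0.15 in mSOD1 medium, by 1.62 ± 0.14 in wtSOD1 medium and by 1.43 ± 0.14 in NTg medium. In wtSOD1 against NTg medium on day 3 the fold was 0.09 ± 0.11 for Pltp and -0.13 ± 0.13 for Smpdl3a. Apoe, the apolipoprotein that receives cholesterol from ABCA1, was low at 4.86 to 8.32 CPM in mSOD1 medium, 4.83 to 11.3 CPM in wtSOD1 medium and 7.25 to 13.5 CPM in NTg medium that day. Between media on day 3, 3 of the 14 fell in mSOD1 against NTg medium and none rose, where 0.684% of all genes fell and 2.23% rose. The 3 were Fads1, a fatty acid desaturase (-0.13 ± 0.03, 0.0191), Lpl, lipoprotein lipase (-0.66 ± 0.17, 0.0289), and Elovl5, a fatty acid elongase (-0.14 ± 0.04, 0.049). In wtSOD1 against NTg medium 1 of the 14 fell, Fasn (-0.23 ± 0.05), where 0.0592% of all genes fell. The other 13 did not pass. In the mSOD1 comparison Fasn did not pass (-0.10 ± 0.05, 0.264). The median of the 14 was -0.10 in each of these comparisons.

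The RXR partners and cofactors, 12 genes, gave 1 call between media on day 3. This was the coactivator Ncoa1, which rose in mSOD1 against NTg medium (0.21, adjusted p = 0.0485), where 2.23% of all genes rose. Rxra stood at 36.5 ± 2.55 CPM in mSOD1 medium, 39.7 ± 1.81 CPM in wtSOD1 medium and 37.3 ± 2.66 CPM in NTg medium on day 3 (SD, n = 6 each), with overlapping libraries. Rxrg, another RXR, fell with time by 1.56 ± 0.19 in mSOD1 medium (7.56e-09), by 1.49 ± 0.18 in wtSOD1 medium (6.02e-09) and by 1.81 ± 0.18 in NTg medium (5.1e-11). Of 15 tested genes for oxysterol enzymes and sterol handling, none passed between media on either day in mSOD1 or wtSOD1 against NTg medium in edgeR, with 3 (mSOD1) and 0 (wtSOD1) at an unadjusted p under 0.05 on day 3, and 0 (mSOD1) and 3 (wtSOD1) on day 1. Cyp46a1, the neuronal cholesterol 24-hydroxylase, rose with time by 0.40 ± 0.09 in mSOD1 medium (0.000204), by 0.33 ± 0.08 in wtSOD1 medium (0.00089) and by 0.31 ± 0.09 in NTg medium (0.00191).

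Genes of the SREBP2 pathway, a list of target genes with regulators such as Srebf2, Scap, Mbtps1 and Mbtps2, mostly fell with time in mSOD1 and NTg medium. Of 22 tested, 2 rose and 15 fell in mSOD1 medium, 4 rose and 8 fell in wtSOD1 medium, and 3 rose and 16 fell in NTg medium. Their median fold was -0.33 in mSOD1 medium, -0.08 in wtSOD1 medium and -0.37 in NTg medium, where 28%, 30.7% and 30.8% of all genes fell in these media. Mbtps1, a protease that processes SREBPs, rose by 0.35 in wtSOD1 medium (adjusted p = 3.47e-09). Srebf2 itself fell by 0.62 ± 0.05 in mSOD1 medium (adjusted p = 4.09e-13), by 0.58 ± 0.05 in wtSOD1 medium (1.86e-12) and by 0.74 ± 0.05 in NTg medium (2.25e-15). On day 1 in wtSOD1 against NTg medium, 2 of 22 fell, Sqle, the squalene epoxidase (-0.26 ± 0.04, adjusted p = 0.00213), and Insig1, the SCAP anchor (-0.23 ± 0.04, 0.0437). These and Scd2 were the 3 genes called lower among all 15207. Insig1 also fell in mSOD1 against NTg medium on day 1 (-0.19 ± 0.05, 0.0485) and on day 3 (-0.19 ± 0.05, 0.0191), and its fold in wtSOD1 against NTg medium on day 3 was 0.06 ± 0.05 (1). On day 3 in mSOD1 against NTg medium, Hsd17b7 of the same list rose (0.215, adjusted p = 0.0471), where 2.23% of all genes rose. In mSOD1 against wtSOD1 medium on day 1, 5 of 22 rose and none fell, where 0.539% of all genes rose. Among the 5 were Nsdhl (0.28, 0.00524), Sqle (0.19, 0.0127) and Sc5d (0.20, 0.0319), all enzymes of the sterol pathway. The list median in that comparison was 0.13 on day 1 and -0.06 on day 3. On day 3, 17 of 22 were below 0, and 1 rose and 2 fell, where 2.49% of all genes rose. In wtSOD1 against NTg medium on day 3 none of the 22 passed, with a median of 0.04.

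**Figure D5:**
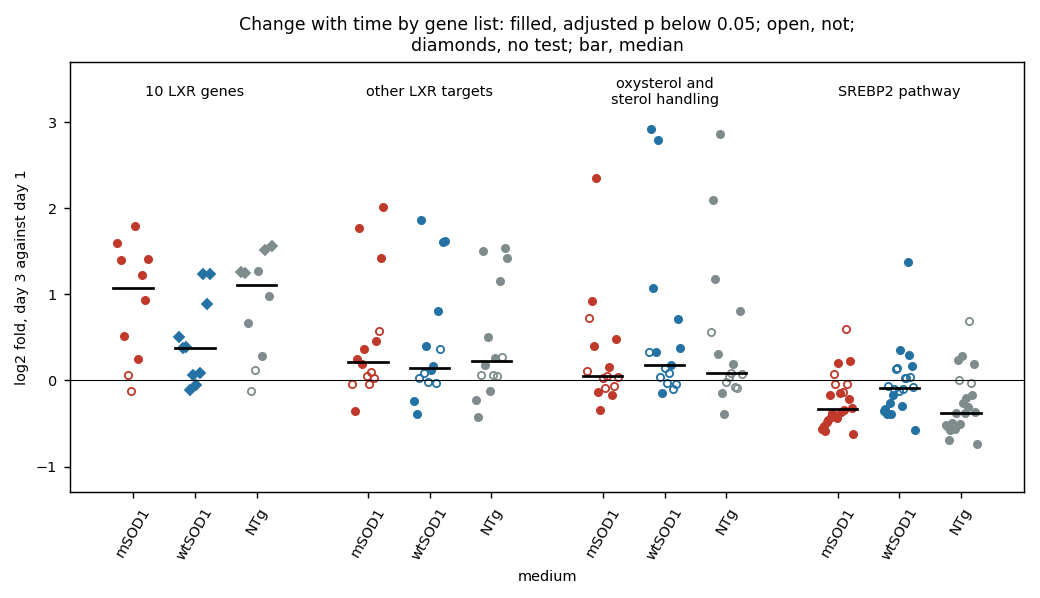
Log2 folds of day 3 against day 1 for the 10 genes and the 3 gene lists in each medium. Points are genes, filled where the adjusted p was below 0.05, and bars are medians. Diamonds mark points given without a test, which are the 10 genes in wtSOD1 medium and the 4 genes picked on day 3 in NTg medium. The 10 genes have medians of 1.08 in mSOD1 and 1.11 in NTg medium, and the SREBP2 pathway genes have medians below 0 in each medium.

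The genes whose pattern over the 6 group means was most like that of a member were ranked by the root mean square difference of centred log2 CPM among 13456 genes. This pattern includes the day 3 wtSOD1 means that chose the members, so it is a description. Abca1 and Abcg1 were each other's nearest gene, at a distance of 0.160 on the log2 scale. Abca1 was next followed by Npy1r (0.200), a neuropeptide Y receptor, and Crispld2 (0.210), and Abcg1 by Scd4 (0.287) and Scd2 (0.297). Scd1 and Srebf1 were likewise each other's nearest gene, at 0.0729. Both were next followed by Thbd, thrombomodulin, and Mlkl, a necroptosis effector, with Thbd at 0.0912 from Scd1 and 0.105 from Srebf1, and Mlkl at 0.118 from Scd1 and 0.112 from Srebf1. Nr1h2 and Mylip ranked between 5894 and 6832 for these 4 genes.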

How the data were processed

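RNA libraries from 36 motor neuron cultures were sequenced. The authors deposited raw read counts per gene and a variance-stabilised log2 value; TopHat 1.3.3, DESeq and the mm9 build are named per the submitters' processing notes, while these sources name no counting program, annotation or strand setting. Counts were fitted with edgeR 4.0.16 (R 4.3.3; TMM, filterByExpr, robust quasi-likelihood F-test, 6 group means, 30 residual degrees of freedom) on all 36 libraries, with 15207 of 21761 genes tested, Benjamini-Hochberg adjustment over all of them and a threshold of 0.05. The fit was tested on simulated data. The alternatives, 14 settings, included DESeq2 1.42.0, limma 3.58.1 on the deposited log2 values and the experiment as a block, in all libraries or within each day. Experiment numbers come from the labels. Same-numbered libraries of a day had mean deviation correlations of 0.132 (day 1) and 0.24 (day 3), and different-numbered ones -0.026 and -0.048. The main fit had no term for the experiment, so its p-values do not use this pairing. Members and gene lists were chosen with earlier results of these data known. All 10 members, the overlapping or related genes, up to 4 genes per list and comparison by lowest p, and the 3 most similar genes were named, except for some genes not reported here; Apoe, Rxra, Cyp46a1 and Emg1 were added after their values were seen. Exon lengths and gene coordinates came from GENCODE M21 (GRCm38).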

Additional observations from a re-analysis of the deposited data

Results flagged for a closer look

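Of 60 sets of 6 libraries (10 genes in 6 groups), 6 held a library that stood apart by Dixon's ratio at the 95% level; chance alone gives about 1 in 20. Scd2 was low in experiment 1 on day 3 in all media, at 2164 CPM in mSOD1 medium (next lowest 2362), 1822 CPM in wtSOD1 medium (next 2028) and 2370 CPM in NTg medium (next 2577). Scd1 was high in experiment 1 of mSOD1 medium on day 1, at 71.5 CPM against a next highest of 61.2 CPM. Rnf145 was high in experiment 3 of wtSOD1 medium on day 3, at 186.9 CPM against 173.2 CPM. Nr1h3 was high in experiment 6 of NTg medium on day 1, at 1.65 CPM from 7 reads, in the library with the fewest reads and the highest microglia marker sum.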

How the results depend on the processing

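No fold that passed the threshold in the main fit changed sign under any of the 14 settings. Folds that did not pass there are not covered by this statement. Counts of the 10 genes called moved by over 1.5 times in 6 comparisons. With the experiment as a replicate block within each day, 1 gene was called in mSOD1 against NTg medium on day 1 (0 otherwise), 2 in wtSOD1 against NTg (1 otherwise), 5 in mSOD1 against wtSOD1 (2 otherwise), 4 in mSOD1 against NTg on day 3 (2 otherwise) and 8 in mSOD1 against wtSOD1 on day 3 (5 otherwise). With the experiment as a replicate block over both days, 1 was called (Abca1) for the difference in time change (0 otherwise); the block changed no other count by that much. Of the 10 genes, wtSOD1 against NTg on day 1 gave 0 with only the groups compared, 2 without the 2 libraries that stand apart, 2 in DESeq2 and 0 to 1 with 1 experiment left out. In mSOD1 against wtSOD1 on day 1 the count was 1 with no filter, 0 with only the groups compared, 1 without the 2 libraries that stand apart, 1 with limma and 0 to 1 with 1 experiment left out; in mSOD1 against NTg on day 3 it was 1 with any experiment left out. The cause was not tested. The block within the day also raised the calls among all genes, to 2758 against 443 in mSOD1 against NTg medium on day 3. Low counts limit Nr1h3 and Mylip, with 0 to 73 and 27 to 719 reads per library.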
